A study of Mus musculus with 2 samples.

Results

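The p53 transcription factor gene Trp53 and 9 of its stress target genes were examined in cultured fibroblasts of mouse embryos, which are connective tissue cells used soon after isolation. The 10 genes were picked by name, and each was found among the 25430 distinct gene names of the deposited RNA-seq table. That table writes them in capitals, as TRP53, MDM2, CCNG1, GADD45A, SESN1, SESN2, AEN, PHLDA3, ZMAT3 and TRP53INP1. One library came from fibroblasts labelled Sptbn1 knockout and the other from fibroblasts labelled wild type, both made from E13.5 embryos of heterozygous (Sptbn1 +/-) crosses and grown in serum-containing medium. The series' title gives the knockout, of the beta-2 spectrin gene, as homozygous. The labels name no further allele or agent, and do not say how many embryos each culture came from. With 1 library per genotype no difference below has a replicate check, and each one compares 2 libraries, not 2 genotypes.

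p53 is a transcription factor that DNA damage, oxidative stress and uncontrolled growth signals stabilise. It is held low by Mdm2, a ubiquitin ligase whose gene p53 itself switches on, so the pair forms a feedback loop. Its other targets slow the cell cycle, restrain growth signalling, assist repair or prime the cell for death, and primary embryonic fibroblasts are a classical system for studying this response because culture itself stresses them.

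The promoters are shown first, because p53 acts by binding DNA. RefSeq promoter windows (assembly GRCm38.p6, from 250 bases before to 50 bases after a gene's start site) were matched by symbol for 8 of the 10 genes, all except Zmat3 and Trp53inp1. They were searched for the p53 decamer half-site, the 10-base unit that p53 recognises in pairs. The unit is its own reverse complement, so 1 search covers both strands. At least 1 exact decamer was found for 6 of the 8 genes (Trp53, Mdm2, Ccng1, Gadd45a, Sesn1 and Aen), and 9.55% of all 27025 genes with a window held one. The members were picked as p53 and its known targets, so this contrast is no result of the 2 libraries. Phlda3 and Sesn2 held none in these windows, and the window of another annotated Sesn1 start site held none either. The windows of Gadd45a and Aen, the members with the highest and the lowest knockout to wild-type ratio, are given whole, 5′ to 3′ on the gene's strand, with the decamer in capitals.
Gadd45a, chr6:67037358-67037657 (-): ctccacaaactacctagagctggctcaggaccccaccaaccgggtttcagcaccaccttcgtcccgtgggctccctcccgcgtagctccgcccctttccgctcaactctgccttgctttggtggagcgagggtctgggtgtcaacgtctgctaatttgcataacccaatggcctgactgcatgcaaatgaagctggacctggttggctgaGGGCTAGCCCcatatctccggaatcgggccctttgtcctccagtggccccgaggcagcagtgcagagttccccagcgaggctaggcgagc
Aen, chr7:78895677-78895976 (+): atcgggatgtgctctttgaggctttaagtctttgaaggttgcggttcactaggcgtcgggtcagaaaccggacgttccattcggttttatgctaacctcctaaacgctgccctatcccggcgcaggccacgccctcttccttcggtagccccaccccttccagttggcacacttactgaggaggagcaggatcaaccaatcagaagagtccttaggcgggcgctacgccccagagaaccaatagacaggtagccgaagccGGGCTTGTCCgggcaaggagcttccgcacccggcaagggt
In Gadd45a the decamer began 40 bases before the start site. In Aen it lay 10 bases past this start, and the window of a second annotated start site held the same decamer.

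The decamers of the other 4 genes are shown with 25 bases on either side, followed by that of Cdkn1a, the textbook p53 target. Cdkn1a is no member and is shown for comparison.
Ccng1, chr11:40755437-40755496 (-): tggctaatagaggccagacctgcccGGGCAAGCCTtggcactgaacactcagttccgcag
Trp53, chr11:69580259-69580318 (+): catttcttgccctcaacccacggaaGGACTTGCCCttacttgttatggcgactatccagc
Mdm2, chr10:117710910-117710969 (-): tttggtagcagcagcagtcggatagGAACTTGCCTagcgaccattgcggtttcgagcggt
Sesn1, chr10:41887241-41887300 (+): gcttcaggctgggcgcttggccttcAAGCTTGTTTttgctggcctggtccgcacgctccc
Cdkn1a, chr17:29090881-29090940 (+): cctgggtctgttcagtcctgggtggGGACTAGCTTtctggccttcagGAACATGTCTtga
In Ccng1 the decamer was directly preceded by another with 1 mismatch. Such near matches were looked for only directly before a decamer, not after it, in Cdkn1a as in the members. A full pair of exact decamers no more than 13 bases apart was found in none of the member windows. It was found in 24 of the 32851 windows (0.0731%), one of them the Cdkn1a window shown in part, where 12 bases separate the 2 capital runs. The window of another annotated Cdkn1a start site held no decamer. A match is a description of the letters and does not show binding, and sites outside these windows were not searched.

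Values are FPKM (fragments counted per kilobase of transcript and scaled to sequencing depth) as deposited, a scale on which levels of different genes can be set side by side. Differences are log2 ratios of knockout over wild type after adding 1 FPKM, so the change of a low gene is understated. Genes counted as measured had a mean of 1 FPKM or more over both libraries, and all 10 members passed, among 11070 genes that did. Genes were counted past a limit of 0.32 on this log2 scale, which is 25% more or 20% less of FPKM + 1 in the knockout library. A gene near 1 FPKM needs a larger change of the FPKM itself to reach it. Judged from the steps between low values, 1 fragment added 1.61 times the FPKM in the knockout library that it added in the wild-type library. The knockout library was thus the shallower, its absolute depth is unknown, and no counting interval was computed. Sptbn1 itself was at 36.6 FPKM in knockout and 69.6 FPKM in wild-type fibroblasts. The targeted gene was thus still detected, at 52.5% of the wild-type level, and this RNA level alone does not establish the homozygous label. All 10 fibroblast markers were measured, with a summed level of 3349 FPKM in knockout and 3481 FPKM in wild-type fibroblasts. Of the 10, 2 had a log2 ratio above 0 and 8 below. Dcn (-0.33) was past the limit on the lower side, as were 6.52% of all measured genes.

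The p53 genes were close to equal in the 2 libraries. The log2 ratios of the members ran from -0.45 to 0.33 with a median of 0.02, and the median over all measured genes was -0.05. Of the 10, 5 lay above 0, 4 below and Trp53inp1 at 0, while 4087 of all measured genes lay above 0 and 6982 below. Set against the all-gene median, 8 of the 10 lay above it. One member, Gadd45a, reached the limit on the higher side, as did 3.85% of all measured genes. One, Aen, reached it on the lower side, as did 6.52% of all measured genes. No member reached 1.5-fold on the scale of FPKM + 1, which 1.04% of all measured genes did on the higher and 1.23% on the lower side. Without the added 1 FPKM, Aen did, at 63.7% of the wild-type level. The median absolute log2 ratio was 0.05 over the members and 0.12 over all measured genes. The 3 most abundant members, Ccng1, Trp53 and Mdm2, held the same order in both libraries, above 92.0% to 95.7% of measured genes, and were at 95.9% to 103% of the wild-type level in knockout fibroblasts.

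**Figure D1:**
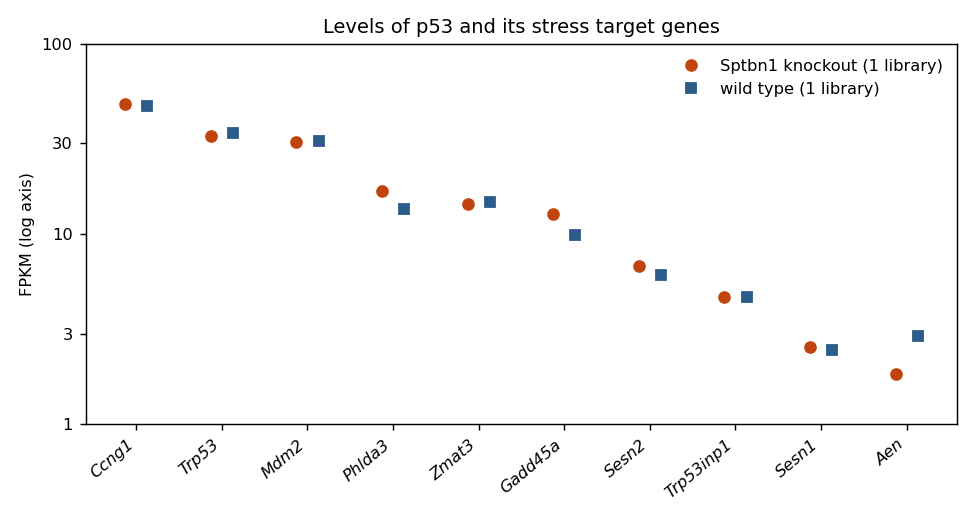
FPKM of each member (log axis) in the Sptbn1 knockout library (circles) and the wild-type library (squares), 1 library each, ordered by the knockout level. Levels run from 1.85 FPKM (Aen, knockout) to 48.6 FPKM (Ccng1, knockout), and the symbols of a gene stand visibly apart for Phlda3, Gadd45a and Aen.

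Trp53 and its negative regulators were nearly alike in the 2 libraries. Trp53 was at 32.7 FPKM in knockout and 34.1 FPKM in wild-type fibroblasts, a log2 ratio of -0.06. Mdm2 was at 30.3 FPKM in knockout and 30.8 FPKM in wild-type fibroblasts, a log2 ratio of -0.02. Mdm2 thus stood at 0.928 times the Trp53 level in knockout and 0.903 times in wild-type fibroblasts, a ratio that no scaling between libraries can alter. Mdm4, the relative of Mdm2 that also blocks p53, had a log2 ratio of -0.09, at 15.8 FPKM in knockout and 16.9 FPKM in wild-type fibroblasts. Ccng1 encodes cyclin G1, which brings a phosphatase to Mdm2, and was the most abundant member. It was at 48.6 FPKM in knockout and 47.0 FPKM in wild-type fibroblasts, a log2 ratio of 0.05. The p53 relatives Trp63 (0.0365 FPKM in knockout and 0.0154 FPKM in wild-type fibroblasts) and Trp73 (listed at 0 in both) were far below Trp53. RefSeq lists a Trp53 pseudogene, Trp53-ps, whose reads may have been divided with Trp53. Wrap53, which starts next to Trp53 on the opposite strand, was at 0.762 FPKM in knockout and 0.847 FPKM in wild-type fibroblasts.

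The largest differences were those of Aen, Gadd45a and Phlda3. Aen, a nuclease gene that p53 induces and that promotes apoptosis, was at 1.85 FPKM in knockout and 2.90 FPKM in wild-type fibroblasts, a log2 ratio of -0.45. It was the lowest member in the knockout library, and Sesn1 the lowest in the wild-type library. Gadd45a, a growth arrest gene induced by DNA damage, was at 12.8 FPKM in knockout and 9.94 FPKM in wild-type fibroblasts, a log2 ratio of 0.33. Phlda3, whose protein holds back the survival kinase AKT at the membrane, was at 16.8 FPKM in knockout and 13.48 FPKM in wild-type fibroblasts. Its log2 ratio of 0.30 lay just short of the limit. The 2 libraries thus differed in both directions among genes that p53 is known to induce. Their p-values in the authors' deposited table were 0.0956 for Aen, 0.159 for Gadd45a and 0.146 for Phlda3.

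The measured relatives of Gadd45a and Phlda3 lay on the other side of 0, where 6982 of the 11070 measured genes also lay. Those of Aen, Isg20 and Isg20l2, lay on the same side as Aen, with log2 ratios of -0.08 and -0.15. Gadd45b and Gadd45g, the paralogues of Gadd45a in the same stress-sensor family, had log2 ratios of -0.21 and -0.10. Gadd45a made up 17.9% of the summed FPKM of the 3 Gadd45 genes in knockout and 13.4% in wild-type fibroblasts. Phlda1, a relative of Phlda3, was at 5.25 FPKM in knockout and 6.90 FPKM in wild-type fibroblasts, a log2 ratio of -0.34. The noncoding gene E230016M11Rik overlaps Gadd45a on the opposite strand in the GENCODE vM21 annotation. It was at 0.0630 FPKM in knockout and 0.615 FPKM in wild-type fibroblasts. The labels do not say that the library kit kept strand, so reads from the 2 strands of this locus may not have been told apart.

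**Figure D2:**
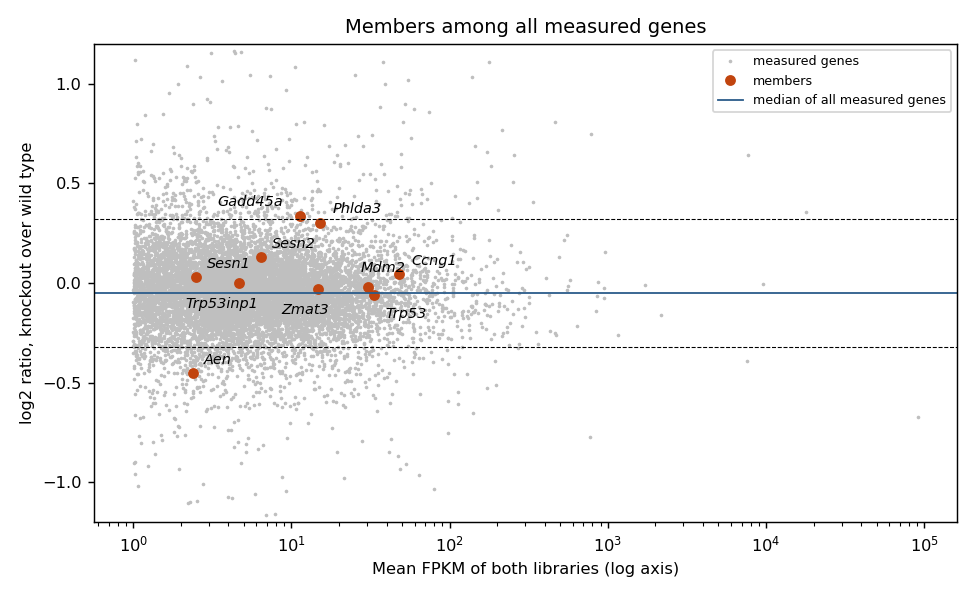
Log2 ratio of knockout over wild type (FPKM + 1) against mean FPKM (log axis) for measured genes (grey) and the members (orange); the blue line is the median of all measured genes (-0.05), the dashed lines mark the limit of 0.32 either side of 0, and 52 measured genes lie beyond the vertical axis. Aen lies below and Gadd45a above the dashed lines, and the other 8 members lie between them.

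The growth-restraining and stress-adaptation members differed little. The sestrins lower mTORC1 signalling under stress, and Sesn2 also senses leucine. Sesn2 was at 6.81 FPKM in knockout and 6.12 FPKM in wild-type fibroblasts, a log2 ratio of 0.13. Sesn1 was at 2.54 FPKM in knockout and 2.46 FPKM in wild-type fibroblasts, a log2 ratio of 0.03. With Sesn3, which had a log2 ratio of 0.09, the make-up of the family was near the same: Sesn2 gave 46.3% of its summed FPKM in knockout and 45.2% in wild-type fibroblasts. Zmat3, which encodes a zinc finger protein that binds RNA, was at 14.5 FPKM in knockout and 14.8 FPKM in wild-type fibroblasts. Its name had a second, lower row, at 1.66 FPKM in both libraries. Trp53inp1, a stress-induced gene with roles in autophagy and cell death, was listed at 4.69 FPKM in both libraries, equal in every deposited digit. It was 1 of 2 measured genes whose values agreed to within a relative difference of 1e-05. Its relative Trp53inp2 was at 21.6 FPKM in knockout and 25.8 FPKM in wild-type fibroblasts, a log2 ratio of -0.24.

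Of the 10 members, only Mdm2 was given a p-value under 0.05 by the authors' deposited table (0.0174), as were 5.6% of all measured genes, although its FPKM in knockout was 98.7% of that in wild-type fibroblasts. The other 9 members had p-values of 0.0956 to 1 in the authors' deposited table. These p-values rest on 1 library per genotype and hold no spread between cultures.

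The wider pathway was described by 5 lists. Beside the count of each list stand the shares over all measured genes, 3.85% past the limit on the higher and 6.52% on the lower side. Upstream and binding regulators of p53 had 18 of 20 genes measured, 5 above and 13 below 0, with a median of -0.04, and 10 of the 18 lay above the median of all measured genes. None of the 18 reached the limit on the scale of FPKM + 1. Daxx, a chromatin chaperone that can bind Mdm2, was at -0.29 and at 78.5% of its wild-type FPKM, the p53 inhibitor gene Ppp1r13l at 0.20, the acetyltransferase gene Ep300 at -0.16 and Ppp1r13b, whose protein steers p53 towards apoptosis genes, at -0.14. Below the measured limit stood Cdkn2a, whose Arf product blocks Mdm2, at 0.458 FPKM in knockout and 0.357 FPKM in wild-type fibroblasts. The damage kinase gene Atm was also below it, at 0.369 FPKM in knockout and 1.18 FPKM in wild-type fibroblasts.

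Cell cycle arrest targets had 8 of 10 genes measured, 4 above and 4 below 0, a median of -0.01 and none at the limit. Cdkn1a, the p21 inhibitor of cyclin-dependent kinases, was more abundant than any member, at 72.6 FPKM in knockout and 84.9 FPKM in wild-type fibroblasts (log2 ratio -0.22). It stood at 2.22 times the Trp53 level in knockout and 2.49 times in wild-type fibroblasts. In the authors' deposited table its p-value was 0.0157. Pml was at -0.21, Btg2 at -0.12 and Plk2 at 0.10. The median log2 ratio of the 7 measured markers of cycling cells, of 8 listed, was 0.13, with 5 above 0, and their summed level was 108 FPKM in knockout and 99.1 FPKM in wild-type fibroblasts. Their part in these values was not tested.

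Apoptosis targets had 10 of 14 genes measured, 4 above and 6 below 0, and a median of -0.02. Siva1, a proapoptotic gene, was past the limit, at 15.5 FPKM in knockout and 9.65 FPKM in wild-type fibroblasts (log2 ratio 0.63). The death receptor gene Fas was past it on the other side, at 2.80 FPKM in knockout and 3.93 FPKM in wild-type fibroblasts (-0.38). Of all measured genes, 3.85% were past the limit on the higher and 6.52% on the lower side. Bax, the pore-forming effector, was at 22.0 FPKM in knockout and 24.2 FPKM in wild-type fibroblasts (-0.14). The death receptor gene Tnfrsf10b was at -0.16 and Trp53i11 at -0.14. Bbc3, which encodes PUMA, was below the measured limit, at 0.636 FPKM in knockout and 0.263 FPKM in wild-type fibroblasts. Pmaip1, which encodes NOXA, was also below it and stood the other way, at 0.596 FPKM in knockout and 1.18 FPKM in wild-type fibroblasts.

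Metabolism and repair targets had 15 of 20 genes measured, 11 above and 4 below 0, with a median of 0.04 and none at the limit on the scale of FPKM + 1. Xpc, a damage sensor of nucleotide excision repair, was at -0.32, just inside the limit, and at 67.0% of its wild-type FPKM, the thiamine transporter gene Slc19a2 at 0.18, Dcxr at -0.18 and the adenylate kinase gene Ak1 at 0.15. The paralogues of the members had 9 of 14 genes measured, 2 above and 7 below 0, with a median of -0.10. Phlda1 was the only paralogue past the limit, on the lower side, as were 6.52% of all measured genes. Ccng2, the sister gene of Ccng1, was at 0.16.

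**Figure D3:**
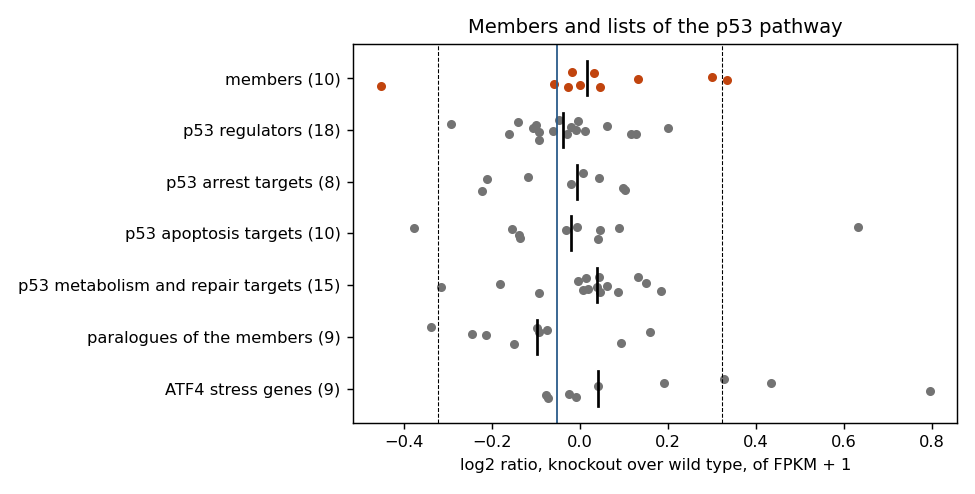
Log2 ratio of knockout over wild type (FPKM + 1) of each measured gene in the member set and in the lists, with the number of measured genes in brackets; black bars are medians, the blue line is the median of all measured genes (-0.05) and dashed lines mark the limit of 0.32 either side of 0. The medians run from -0.10 (paralogues) to 0.04 (ATF4 stress genes), and Aen, Fas and Phlda1 lie left of the dashed lines while Gadd45a, Siva1, Ddit3, Trib3 and Ddit4 lie right of them.

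Signs near 0 depended on how the libraries were scaled. On a common FPKM sum the median of all measured genes was 0.34 in place of -0.05, and every member except Aen (-0.13) was then above 0. Gadd45a (0.77) and Phlda3 (0.74) were again the highest members on that scaling and Aen the lowest. Under the other scalings, Aen ran from -0.44 to -0.40 and Gadd45a from 0.35 to 0.39. Among these was a common sum without small RNAs and the outlying rows of Dnaja1, Rpl39 and Zfp184. It gave an all-gene median of -0.04 and a member median of 0.03. With every row kept, the FPKM summed to 279927 in the knockout and 386567 in the wild-type library. Markers of macrophages and leukocytes, cells that such cultures can hold, were lower in the knockout library for 11 of 12 genes, with none at 0. Their summed level was 787 FPKM in knockout and 1267 FPKM in wild-type fibroblasts. Most of it came from the joined entry of Lyz1 and Lyz2, at 572 FPKM in knockout and 979 FPKM in wild-type fibroblasts. The part of these markers in the member values was not tested. In bulk RNA, fewer cells of a type and less RNA per cell cannot be told apart.

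**Figure D4:**
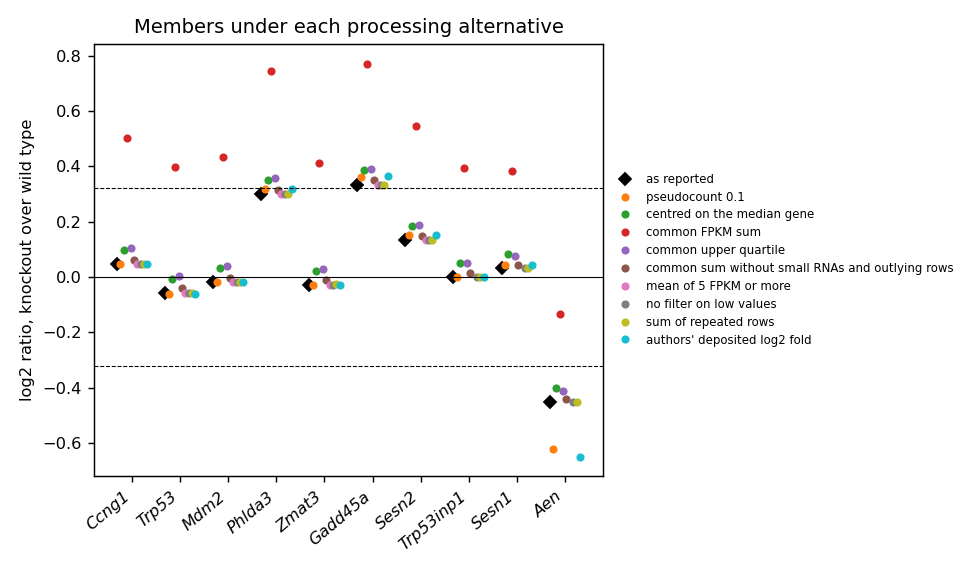
Log2 ratio of knockout over wild type of each member as reported (black diamonds) and under each processing alternative (coloured dots); dashed lines mark the limit of 0.32 either side of 0. The common FPKM sum (red) lifts every member, Gadd45a to 0.77, while Aen stays below 0 under each alternative that keeps it.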

How the data were processed

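RNA was sequenced from 1 Sptbn1 knockout and 1 wild-type culture. TRIzol extraction and the Illumina TruSeq RNA kit were used, per the labels' protocols. Per the series' design text, the authors aligned reads with TopHat2 2.0.10 to NCBI mouse build 37.2 and used Cufflinks and Cuffdiff2. Their other settings are unknown here. The table, per the file headers, gives the authors' FPKM per gene, their log2 fold and their p-value. Of the log2 fold cells, 1768 held a spreadsheet error in place of a number. The header of the wild-type column also shows a -/- sign, and it was read as wild type because it starts with that library's title.

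Log2 ratios, medians and counts were computed with Python 3.11.15 and pandas 2.3.3, and the ratio code was tested on simulated data. Where a name occurred more than once, its highest row by mean was kept. With 1 library per genotype no test was run. The members and lists were chosen with earlier results of these data known. The genes named were the members, Sptbn1, up to 4 measured genes per list with the largest differences, and Cdkn1a, Bax, Bbc3, Mdm4 and Cdkn2a. Any other gene was chosen with its values in view. Some list genes were found under older names. Alternatives were another pseudocount, other scalings, other filters, summed repeated rows and the deposited fold.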

Additional observations from a re-analysis of the deposited data

How the results depend on the processing

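Counts here are of measured members, and a median counts as moved at a difference of 0.1 or more on the log2 scale. On a common FPKM sum the member median was 0.42 and the all-gene median 0.34, with 9 members past the limit of 0.32 on the higher side and 0 on the lower. The median of all measured genes was there itself past this limit, so the count of 9 says little about the members. The medians there were 0.35 for regulators, 0.34 for arrest targets, 0.40 for apoptosis targets, 0.44 for metabolism and repair targets, 0.33 for paralogues and 0.50 for ATF4 stress genes. Centring on the median gene gave 2 members higher (Gadd45a and Phlda3), and a common upper quartile also gave 2. The share of all measured genes past the limit was not computed under the alternatives. At a mean of 5 FPKM or more, Aen was no longer measured, so 0 members were lower, and the ATF4 list had a median of 0.19. With a pseudocount of 0.1 FPKM, Aen was at -0.62, and in the authors' deposited table at -0.65. The other medians and counts of these results moved less under the alternatives run. No paired analysis was possible because each genotype has 1 library. Total fragment counts are unknown, so counting error could not be given, and it weighs most on low genes such as Aen and Sesn1.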

Other observations

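Genes induced through the stress factor ATF4, which also acts on Sesn2 and Gadd45a, had 9 of 9 list genes measured, 5 above and 4 below 0, with a median log2 ratio of 0.04. Of these, 3 were past the limit of 0.32 on the higher side and none on the lower, against 3.85% and 6.52% of all measured genes. Ddit4, an inhibitor of mTORC1, was at 20.6 FPKM in knockout and 11.5 FPKM in wild-type fibroblasts (0.80). Trib3, a pseudokinase gene, was at 5.15 FPKM in knockout and 3.56 FPKM in wild-type fibroblasts (0.43). Ddit3, which encodes the factor CHOP, was at 27.5 FPKM in knockout and 21.7 FPKM in wild-type fibroblasts (0.33). Chac1 was at 0.19 and Atf4 itself at 0.04. The 4 genes below 0 were Ppp1r15a (-0.08), Asns (-0.07), Slc7a11 (-0.02) and Atf3 (-0.01). This list, like the others, was chosen with earlier results of these data known. The part of ATF4 in the member values was not tested.

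The small p-value of Mdm2 beside a near-equal FPKM was not unique. The authors' deposited table gave 2118 measured genes a log2 fold within 0.05 of 0, and 60 of these (2.83%) a p-value under 0.05. Among measured genes inside the limit of 0.32, 256 had a p-value under 0.05 by the authors' deposited table.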
